A study of Homo sapiens with 15 samples.

Results

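SKOV3ip1 is a human epithelial ovarian cancer cell line, and its messenger RNA was compared here between cells given the antibody labelled 003 and folate-fed control cells. The members are the arrays of the 003 extract and of its controls, 8 of the 15 arrays of the series, and the genes that differed from both controls in the same direction, 953 of 14170 genes tested (6.73%). The 003 cells were kept for 7 days with folic acid at 2 to 10 nM (the labels write nm, and the titles call the folate source 5-MTF) and received 003 for 24 hours. The controls were folate-fed cells without antibody (3 arrays) and folate-fed cells given the control antibody 004 for 24 hours (2 arrays, after replicate 1 of that extract was left out). Cells in folate-free medium for 7 days and folate-fed cells given the antibody labelled MORAb003 for 24 hours completed the series, with 3 arrays each. Each condition was 1 culture that gave 1 RNA extract, of which 3 aliquots were hybridised, so the arrays of an extract are technical repeats and every p-value below compares RNA extracts and not separate cultures. What 004 binds, and whether 003 and MORAb003 are the same antibody, is not given in the sources used here.

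MORAb-003 recognises folate receptor alpha, a lipid-anchored surface protein encoded by FOLR1 that binds folate with high affinity and is abundant on many epithelial ovarian cancers. Folate supplies one-carbon units for nucleotide and methionine synthesis, and cells also take it up through the reduced folate carrier SLC19A1. In such cells NF-kB drives inflammatory and survival genes together with its own inhibitors, ERK signalling induces the Sprouty and dual-specificity phosphatase genes that dampen it, and ATF4 drives amino acid synthesis genes when amino acids or protein folding fail.

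Levels are on the log2 scale of the deposited table, and each gene is given by its brightest probe set. A gene counted as different from both controls when limma gave a Benjamini-Hochberg adjusted p under 0.05 against the folate extract, the 004 extract and their equally weighted pool, with the same sign throughout and at least a 1.5-fold difference (0.585 on the log2 scale) from the pool. The array also carries control probe sets for the 3' and 5' ends of the actin and GAPDH messages, and these differed between the extracts. The actin gap, as 3' minus 5' log2 signal, was 4.02 ± 0.10 (SD, n = 3 arrays) in the 003 extract, 3.24 ± 0.13 (n = 3) in the folate extract and 3.28 ± 0.01 (n = 2) in the 004 extract. It was 4.09 ± 0.16 (n = 3) in the no-folate extract, 2.42 ± 0.13 (n = 3) in the MORAb003 extract and 3.82 in the 004 array that was left out. The GAPDH gap ran in nearly the same order, at 2.49 in the 003 extract, 1.97 in the folate extract, 1.89 in the 004 extract, 2.37 without folate and 1.21 with MORAb003. A wider gap means less signal from the 5' end relative to the 3' end. The 003 extract and its controls thus differed in this measure as well as in treatment, and its part in the gene differences below was not tested. The 16 epithelial ovarian cancer markers had a mean level of 10.6 to 10.7 in the 003 arrays, with 15 of 16 above the cutoff for testing, whereas 8 of 11 fibroblast and endothelial markers (mean 7.03 to 7.15) and 4 of 9 leukocyte markers (mean 6.57 to 6.65) reached that cutoff of 6.59. Of these, the epithelial marker MUC1 was higher and CDH1 lower than both controls, and 0 of the fibroblast, endothelial and leukocyte markers were called by limma (5 and 1 were higher at an unadjusted p under 0.05). The epithelial mean covers a wide range in the 003 arrays, from KRT18 at 14.14 to 14.18 down to MSLN, under the cutoff at 5.54 to 5.90. MUC16 read 6.69 to 7.09 and WFDC2 7.59 to 7.87, below the fibroblast marker COL1A1 at 9.24 to 9.46.

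**Figure D1:**
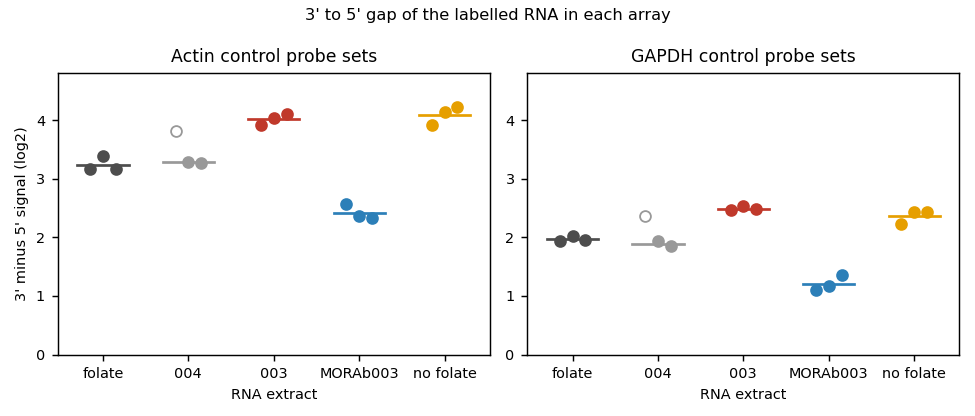
Gap between the 3' and 5' control probe sets (log2, vertical axis) of actin and GAPDH for each array, by RNA extract, with a bar at the extract mean. The 003 and no-folate arrays lie above the folate and 004 arrays used, MORAb003 lies below them, and the open circle is replicate 1 of 004, which was left out of the means.

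Most genes that separated 003 from its controls were lower. In the 003 extract 104 genes were higher than both controls (0.734% of the genes tested) and 849 were lower (5.99%), by limma with Benjamini-Hochberg adjustment. The shares of 0.734% and 5.99% apply beside every list count below of genes called higher or lower than both controls in this fit. They do not apply to list counts at an unadjusted p under 0.05 or without the fold minimum. For the list counts at an unadjusted p, the share over all genes is not given here. Against the pool alone, without the condition on each control, 104 were higher and 857 lower (6.05%). The higher genes differed from the pool by 0.59 to 1.22 on the log2 scale (median 0.65) and the lower genes by 0.58 to 1.67 in size (median -0.71), while the median of all genes was 0.03 and 45.4% of all genes were lower. At least 2-fold differences were seen in 2 higher genes, PTGDS and NFKBIA, and in 74 lower genes. In both controls 1 higher and 8 lower genes were under the cutoff for testing, and in the 003 extract 0 and 47 were. Of the named lower genes, the 003 mean was under that cutoff of 6.59 for SLC25A43 (5.78), PELI1 (6.11), PKP2 (5.87), ACSL4 (6.57) and MMP1 (5.35). The values at the edge of the 1.5-fold minimum were 0.5853 for ABHD11 just inside and 0.5845 for SLC4A11 just outside, and -0.5850 for PARD6B inside and -0.5849 for RMND5A outside. The controls themselves differed at an adjusted p under 0.05 in 0 genes by limma, with 482 genes at an unadjusted p under 0.05.

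The split depended on 1 array and on the scaling. The 3 arrays of 003 lay outside all 5 control arrays for 104 of the 104 higher genes and 839 of the 849 lower ones. Over all genes tested, 17% lay above and 22.4% below all 5 control arrays. With the left-out 004 array counted, the groups still did not overlap for 104 higher genes, but for 89 of the 849 lower genes. For the others of these, that array read as low as a 003 array or the 5 controls already overlapped. At its 90th percentile that array read 9.041, against 9.732 and 9.745 in the other 004 arrays. Of the named higher genes called, it read below all 5 other controls except for PTGDS, TSSC4 and NFKBIE. Counting it could thus hardly add overlap for higher genes, so the 104 is no separate check of them. The same limit applies to the counts below with all 15 arrays. With all 15 arrays in the fit, 82 genes were higher and 66 lower, and of the members above 61 higher and 66 lower genes were called again. All 953 kept their sign in that fit, with median differences of 0.77 and -0.54. Among the called genes named by rule (the largest differences and up to 4 per list), 15 of 23 higher and 17 of 72 lower ones were called again; the lower ones were ASNS, DDIT4, CXCR4, NRP1, NETO2, ANK3, SPRY1, SPRY2, ALDOC, BNIP3, P4HA1, PDIA3, DSG2, GGH, MAT2B, CCNG1 and MAL. In the lists described below that fit called 3 NF-kB genes higher, 3 amino acid genes lower, 3 hypoxia genes lower, 1 ERK gene higher and 2 lower, and 1 endoplasmic reticulum gene lower. It called 0 genes in the Wnt, cholesterol, fatty acid, metallothionein, G2/M and mesenchymal lists, where the fit without the array called 3 to 7 genes each. Quantile normalization gave 218 higher and 647 lower genes, so that the lower share was 74.8% in place of 89.1%. Other probe sets of the same genes above the cutoff read the same sign in 70 of 87 cases (80.5%) for the higher genes and in 573 of 749 (76.5%) for the lower ones, with smaller medians of 0.19 and -0.28. Only 6 and 172 of them differed by at least 1.5-fold in the same direction. Other probe sets are given below for some named genes only, so a gene without them is not shown to agree.

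**Figure D2:**
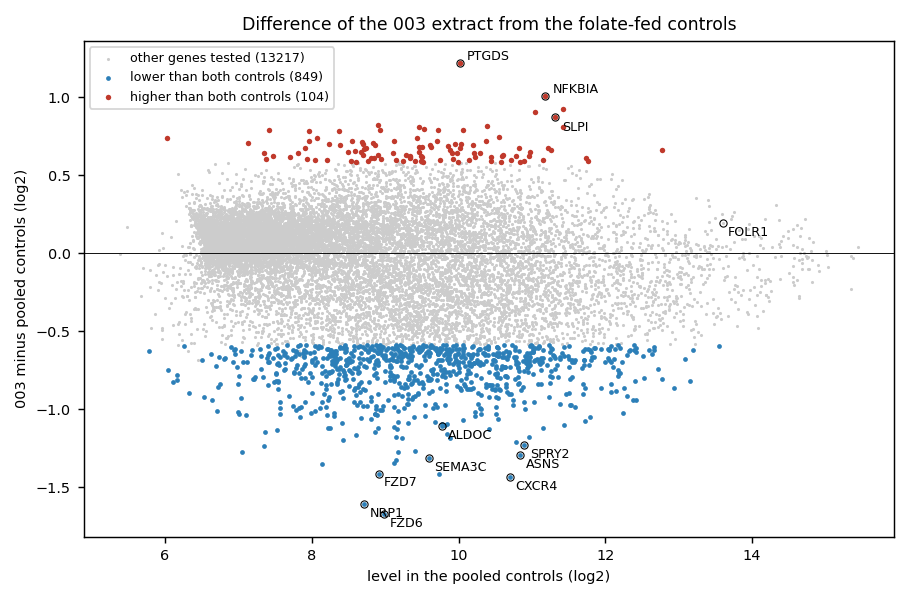
Difference of the 003 extract from the pooled controls (log2, vertical axis) against the control level (log2, horizontal axis) for the 14170 genes tested. The 104 higher genes are red and the 849 lower genes blue, and the named genes are ringed, and FOLR1 lies near 0 difference at a high level.

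FOLR1, the receptor itself, was expressed at a high level in every extract, with a mean of 13.79 with 003, 13.80 without folate and 14.06 with MORAb003. It read 13.74, 13.83 and 13.82 in the 003 arrays, 13.45, 13.63 and 13.50 in the folate arrays and 13.57 and 13.76 in the 004 arrays. The highest 004 array overlapped the lowest 003 array. The difference from the pool was 0.20 ± 0.07 (SE; adjusted p = 0.0377), with 0.27 against the folate extract (adjusted p = 0.0147) and 0.12 against the 004 extract (adjusted p = 0.31), so FOLR1 was not among the members. The difference from the pool missed the threshold when folate replicate 1 or 3, any 003 replicate or 004 replicate 2 was left out (0.15 to 0.22, adjusted p = 0.051 to 0.148). Of 10 folate uptake and retention genes tested, 0 were higher and 1 was lower than both controls, beside 0.734% and 5.99% of all genes.

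That gene was GGH, the lysosomal hydrolase that trims the glutamate tail of stored folates. It read 10.25, 10.21 and 10.38 in the 003 arrays, 11.26, 10.95 and 11.03 in the folate arrays and 11.14 and 11.18 in the 004 arrays. The 003 arrays were all below the controls, and the left-out 004 array, at 10.38, was level with the highest of them. The difference was -0.84 ± 0.08 (SE; adjusted p = 1.9e-06), and the no-folate extract lay at -0.79 against the same pool. SLC19A1, the reduced folate carrier, differed by 0.52 and FPGS, which adds the glutamate tail, by 0.29, both under the fold minimum. Among 25 enzymes of folate one-carbon, methionine and nucleotide metabolism, 0 were higher and 4 lower: DLD, a subunit shared by the glycine cleavage and other mitochondrial dehydrogenase systems (-0.81), MTFMT, which formylates the mitochondrial initiator methionine (-0.80), MAT2B, the regulatory subunit of methionine adenosyltransferase (-0.79), and MTR, methionine synthase (-0.59). The median of this list was -0.15. TYMS, thymidylate synthase, differed by -0.15.

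Feedback inhibitors of NF-kB were among the genes that were higher with 003. Of 22 genes tested for NF-kB subunits, feedback inhibitors and cytokine targets, 4 were higher than both controls and 0 lower, with a list median of 0.21. The promoters of NFKBIA and TNFAIP3 are shown because both are called inhibitors with a match to the letters GGNNTTTCC, written here for the last 9 bases of an NF-kB site and searched on both strands. The windows run from 250 bases before to 50 bases after the start site (RefSeq, GRCh38.p14, printed 5' to 3' on the gene's strand), and capitals mark the matches.
NFKBIA, chr14:35404700-35404999, minus strand: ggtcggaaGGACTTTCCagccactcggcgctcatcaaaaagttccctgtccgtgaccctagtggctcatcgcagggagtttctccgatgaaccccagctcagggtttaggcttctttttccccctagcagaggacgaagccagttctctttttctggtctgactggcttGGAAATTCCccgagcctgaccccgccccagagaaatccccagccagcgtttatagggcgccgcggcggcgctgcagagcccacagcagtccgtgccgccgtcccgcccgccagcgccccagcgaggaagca
TNFAIP3, chr6:137867009-137867308, plus strand: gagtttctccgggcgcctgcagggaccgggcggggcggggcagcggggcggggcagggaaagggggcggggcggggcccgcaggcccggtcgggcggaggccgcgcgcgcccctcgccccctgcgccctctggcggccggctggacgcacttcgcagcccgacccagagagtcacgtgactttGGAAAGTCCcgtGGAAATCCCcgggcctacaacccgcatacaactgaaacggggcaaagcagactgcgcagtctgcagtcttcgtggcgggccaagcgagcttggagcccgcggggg
Each window holds 2 matches. Of the called members with a promoter in the table, NFKBIA and TNFAIP3 held a match and MAP3K14 did not. Over the list 10 of 20 promoters held one, and 6.41% of the 11272 promoters of tested genes did. A match describes the letters only.

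NFKBIA encodes I-kappa-B alpha, which holds NF-kB in the cytoplasm and is itself an NF-kB target. It read 12.13, 12.24 and 12.19 in the 003 arrays, 11.27, 11.27 and 11.02 in the folate arrays and 11.15 and 11.21 in the 004 arrays. Every 003 array was above every control array. The difference was 1.01 ± 0.09 (SE; 2.01-fold, adjusted p = 1.1e-06), while another NFKBIA probe set differed by 0.10. The 003 level was also above the no-folate extract by 0.43 (adjusted p = 0.0119) and above the MORAb003 extract by 1.27 (adjusted p = 1.6e-08).

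TNFAIP3 encodes A20, a ubiquitin-editing enzyme that shuts off NF-kB signalling. It read 9.48, 9.48 and 9.64 with 003, 8.96, 8.91 and 8.74 with folate alone and 8.98 and 8.89 with 004. The groups did not overlap, and the difference was 0.63 ± 0.12 (SE; adjusted p = 6.0e-04), with 0.22 in another probe set. MAP3K14 encodes NIK, the kinase that starts the alternative NF-kB pathway. Its levels were 9.32, 9.26 and 9.40 with 003, 8.75, 8.70 and 8.61 with folate alone and 8.75 and 8.65 with 004, a difference of 0.63 ± 0.06 (SE; adjusted p = 2.0e-06). NFKBIE, another I-kappa-B protein, was higher by 0.59. The subunit genes NFKB2 (0.54), RELB (0.42) and RELA (0.33) were below the fold minimum, NFKB1 differed by -0.03, and the chemokine genes CXCL8 (-0.16) and CXCL1 (-0.07) had adjusted p-values of 0.15 and 0.47.

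Of 12 secreted proteins of mucosal defence tested, 2 were higher than both controls and 0 lower, and the list median was 0.28. SLPI, a secreted inhibitor of leukocyte proteases, read 12.16, 12.14 and 12.27 with 003, 11.33, 11.40 and 11.19 with folate alone and 11.25 and 11.40 with 004. All 003 arrays lay above the controls, by 0.88 ± 0.08 (SE; adjusted p = 1.1e-06). Above the same pool the MORAb003 extract lay at 1.00 and the no-folate extract at 0.67. SLPI with 003 differed from the no-folate extract by 0.21 (adjusted p = 0.13 by limma). DEFB1, an antimicrobial peptide, was higher by 0.65 ± 0.13 (SE; adjusted p = 8.9e-04). For DEFB1 the MORAb003 extract lay at 1.41 and the no-folate extract at -0.25. LCN2, which binds bacterial iron carriers, differed by 0.38.

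PTGDS, which makes prostaglandin D2 and carries small lipids, had the largest difference among the higher genes. It read 11.30, 11.23 and 11.16 in the 003 arrays, 9.85, 10.13 and 10.10 in the folate arrays and 10.10 and 9.90 in the 004 arrays. No other array of the series reached the 003 level. The difference was 1.22 ± 0.08 (SE; 2.33-fold, adjusted p = 1.4e-07), and other probe sets of the gene read 0.89 and 1.16. The next genes by size were SRRM2, a scaffold of the spliceosome and nuclear speckles (0.93), C19orf33 (0.91), MZT2B, a part of the gamma-tubulin complex (0.82), ZNF593 (0.82), CCDC124 (0.81) and ATP5F1D, a subunit of mitochondrial ATP synthase (0.81). PSMB10, an immunoproteasome subunit, TSSC4, ZNF628, the mitochondrial peptidase NLN, the kinase CDK13 and MACROD1, which removes ADP-ribose from proteins, were higher by 0.79 each. For NLN and CDK13 the other probe sets disagreed: those of NLN ran from -0.48 to 0.16 and those of CDK13 from -0.70 to 0.22. In the no-folate extract, whose actin gap was as wide as that of 003, CDK13 lay at 1.47, MZT2B at 1.27, NLN at 1.23 and SRRM2 at 1.11 above the same pool. MACROD1 and C19orf33 lay between NLN and SRRM2 there. In the MORAb003 extract, whose gap was narrower, MACROD1 lay at 1.09 and C19orf33 at 0.22, whereas CDK13, MZT2B, NLN and SRRM2 lay below the pool.

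**Figure D3:**
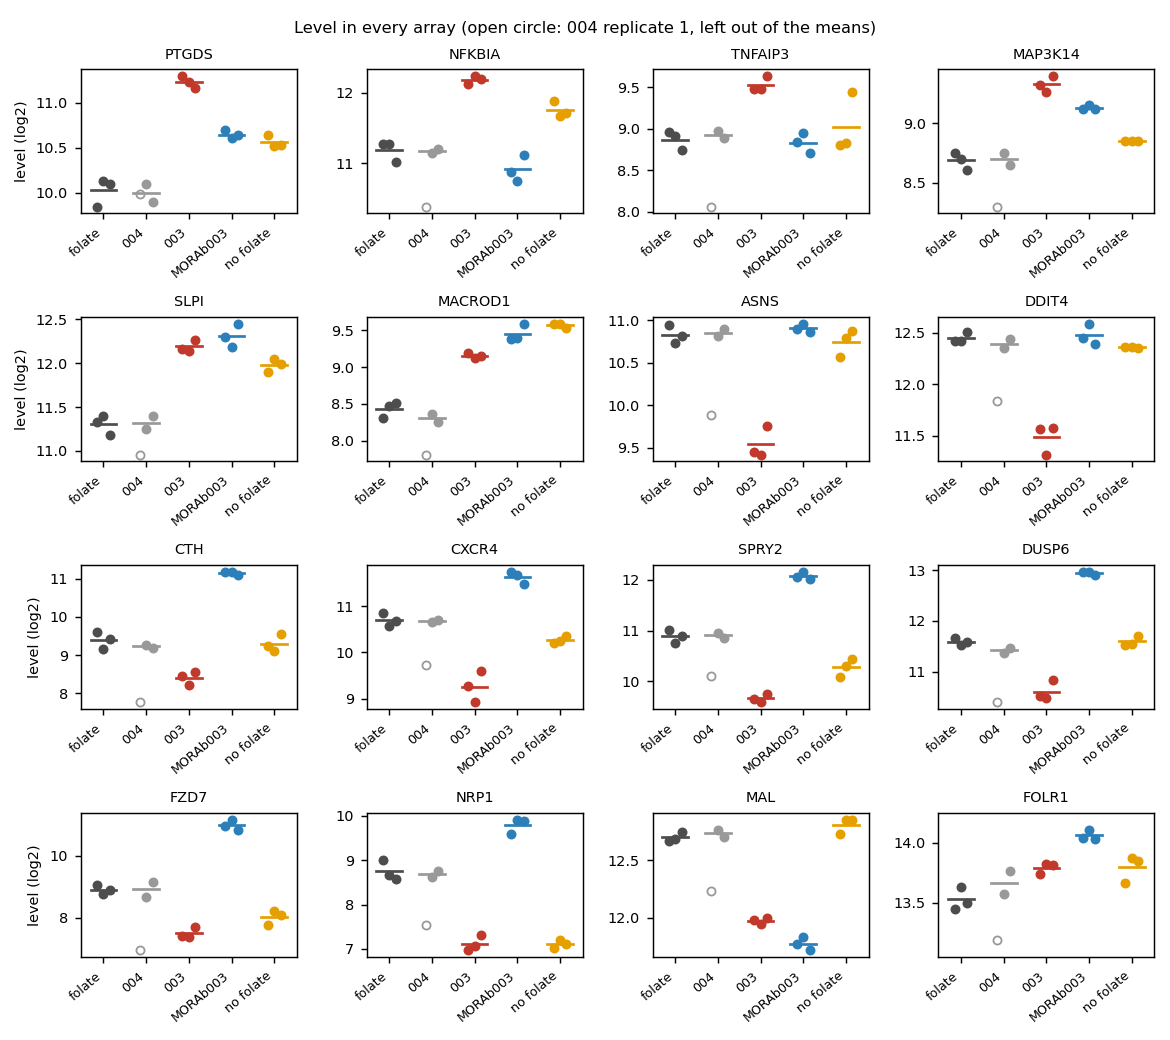
Level (log2, vertical axis) of 16 genes in each of the 15 arrays, by RNA extract, with a bar at the extract mean. PTGDS, NFKBIA, TNFAIP3 and MAP3K14 are highest with 003, ASNS, DDIT4, CTH, CXCR4, SPRY2 and DUSP6 have their lowest extract mean with 003, and the open circle is replicate 1 of 004, left out of the mean.

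The largest differences on the lower side were in receptor genes. FZD6, a Frizzled receptor for Wnt ligands, read 7.32, 6.85 and 7.78 in the 003 arrays, 9.23, 8.93 and 8.89 in the folate arrays and 8.91 and 9.02 in the 004 arrays. All 3 were below the 5 controls, while the left-out 004 array, at 7.32, lay among them. The difference was -1.67 ± 0.16 (SE; 3.18-fold lower, adjusted p = 1.9e-06), and the no-folate extract lay at -1.42 against the same pool. FZD7, a related receptor, read 7.42, 7.38 and 7.70 with 003, 9.07, 8.76 and 8.90 with folate alone and 8.68 and 9.16 with 004. It differed by -1.41 ± 0.13 (SE; adjusted p = 1.4e-06), with -1.04 in another probe set, and the left-out array was lower still at 6.94. Of 18 Wnt receptor and target genes, 4 were lower and 0 higher (median -0.14). The others called were FZD5 (-0.97, with 0.12 in another probe set) and the secreted antagonist family member DKK3 (-0.80), whereas the Wnt target AXIN2 differed by 0.12.

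NRP1, the neuropilin co-receptor for semaphorins and VEGF, read 6.97, 7.06 and 7.31 in the 003 arrays, 9.01, 8.66 and 8.57 in the folate arrays and 8.62 and 8.76 in the 004 arrays. The 003 arrays lay below all 6 control arrays, the left-out one included at 7.54. The difference was -1.61 ± 0.11 (SE; adjusted p = 2.0e-07) in the brightest probe set and -0.18 in another, and the no-folate extract lay at -1.60. CXCR4, the receptor of the chemokine CXCL12, read 9.28, 8.92 and 9.59 with 003, 10.86, 10.58 and 10.67 with folate alone and 10.66 and 10.71 with 004. It differed by -1.43 ± 0.12 (SE; 2.70-fold lower, adjusted p = 7.8e-07), other probe sets read -1.07 and -0.82, and the 003 arrays lay below all 6 control arrays. CXCR4 was also lower with 003 than in the no-folate extract, with a difference of -1.01 (adjusted p = 2.6e-04).

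SEMA3C, a secreted semaphorin, differed by -1.31, with -0.08 in another probe set. NETO2, an auxiliary subunit of kainate receptors (-1.41), ANK3, which anchors membrane proteins to the spectrin cytoskeleton (-1.35), SLC18B1, a vesicular polyamine transporter (-1.35), FNDC3A (-1.32), the histone chaperone ASF1A (-1.28), SLC25A43, a mitochondrial carrier family member (-1.27), the scavenger receptor COLEC12 (-1.27) and PELI1, a ubiquitin ligase of Toll-like receptor signalling (-1.24), followed. Other ANK3 probe sets read 0.10 and -0.06, and FNDC3A differed by -0.33 with all its probe sets averaged. In the no-folate extract these 9 genes lay between -0.51 (SLC18B1) and -1.19 (ASF1A) against the same pool.

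Of 30 immediate early and ERK target genes, 6 were lower and 0 higher than both controls, and the median was -0.19. Without the fold minimum and the condition on each control, 14 were lower and 6 higher than the pool at an adjusted p under 0.05 by limma. By that looser rule 3374 of all 14170 genes tested were lower and 2404 higher. SPRY2, a Sprouty inhibitor of receptor tyrosine kinase signalling, read 9.66, 9.58 and 9.76 in the 003 arrays, 11.02, 10.76 and 10.89 in the folate arrays and 10.96 and 10.86 in the 004 arrays. Every 003 array was below all 6 control arrays, with the left-out one at 10.11. The difference was -1.23 ± 0.08 (SE; adjusted p = 2.0e-07).

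DUSP6, the phosphatase that switches off ERK, read 10.52, 10.48 and 10.85 with 003, 11.67, 11.52 and 11.59 with folate alone and 11.37 and 11.48 with 004. It differed by -0.89 ± 0.08 (SE; adjusted p = 1.7e-06), and other probe sets read -0.88 and -0.87. The left-out 004 array, at 10.40, was as low as the 003 arrays. SPRY1 differed by -0.87, although another probe set read 0.37, and SPRED2 by -0.85. With all its probe sets averaged, SPRED2 differed by -0.19. Members of the list that encode transcription factors went both ways under the fold minimum, with FOS at -0.52, MYC at -0.44, EGR1 at 0.04 and FOSL1 at 0.57. None of the 10 EGF receptor family and ligand genes was called, beside 0.734% higher and 5.99% lower of all genes tested. At an unadjusted p under 0.05 by limma, 2 were higher and 2 lower, and EGFR itself differed by 0.14.

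The amino acid response list held the lower gene that stood farthest from all 4 other extracts, ASNS. Of 34 amino acid response and ATF4 target genes, 5 were lower and 0 higher (median -0.19). The ASNS promoter is shown because it was the only 1 of the 5 called members with a match to the letters TGATGNAA, written here for an ATF4 response element, and ALDOC because it led the hypoxia list and holds ACGTG, the core of a hypoxia response element. Both strands were searched, build and window are as above, and capitals mark the matches, of which the first 2 in ALDOC overlap.
ASNS, chr7:97872359-97872658, minus strand: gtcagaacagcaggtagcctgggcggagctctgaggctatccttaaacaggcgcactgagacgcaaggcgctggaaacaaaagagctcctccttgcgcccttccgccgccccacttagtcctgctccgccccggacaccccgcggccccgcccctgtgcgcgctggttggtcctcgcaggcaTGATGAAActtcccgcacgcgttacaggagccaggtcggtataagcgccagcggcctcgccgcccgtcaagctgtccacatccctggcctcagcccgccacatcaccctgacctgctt
ALDOC, chr17:28576846-28577145, minus strand: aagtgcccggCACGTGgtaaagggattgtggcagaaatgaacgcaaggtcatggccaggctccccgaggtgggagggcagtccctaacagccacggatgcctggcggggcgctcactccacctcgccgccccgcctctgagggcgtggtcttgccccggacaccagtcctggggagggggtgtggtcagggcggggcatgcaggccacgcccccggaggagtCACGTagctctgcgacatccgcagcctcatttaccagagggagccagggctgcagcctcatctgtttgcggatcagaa
TGATGNAA was found in 7 of 29 promoters of the amino acid list and in 2.06% of all 11272. ACGTG was found in 13 of 30 promoters of the hypoxia list, in 4 of its 7 called members with a promoter (ALDOC, BNIP3, P4HA1 and EGLN1) and in 25.5% of all.

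ASNS makes asparagine from aspartate and glutamine. It read 9.45, 9.42 and 9.76 in the 003 arrays, 10.95, 10.73 and 10.81 in the folate arrays and 10.81 and 10.89 in the 004 arrays. The left-out 004 array read 9.89, also above the 003 arrays. The difference was -1.29 ± 0.09 (SE; 2.45-fold lower, adjusted p = 2.0e-07). With all its probe sets averaged it was -0.64. ASNS lay near the controls without folate (-0.10) and with MORAb003 (0.07), and the difference of 003 from those extracts was -1.19 (adjusted p = 7.1e-06) and -1.36 (adjusted p = 9.2e-09).

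DDIT4, a stress-induced inhibitor of mTORC1, showed the same order. It read 11.56, 11.32 and 11.57 with 003, 12.43, 12.42 and 12.50 with folate alone and 12.36 and 12.44 with 004, with 11.84 in the left-out array. The difference was -0.94 ± 0.07 (SE; adjusted p = 4.5e-07), and against the no-folate extract it was -0.87 (adjusted p = 1.0e-05). CTH, which makes cysteine from cystathionine, differed by -0.90 ± 0.11 (SE; adjusted p = 1.6e-05), with -1.11 in another probe set, but read 7.76 in the left-out array, under all 003 arrays. VLDLR, a lipoprotein and reelin receptor, differed by -0.89. The regulator ATF4 itself differed by -0.06, DDIT3 by -0.05 and TRIB3 by 0.09, and the serine synthesis genes PSAT1 (-0.50), PSPH (-0.46) and PHGDH (-0.29) were under the fold minimum.

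Of 34 hypoxia response and glycolysis genes, 8 were lower and 0 higher, with a median of -0.20. ALDOC, a glycolytic aldolase, read 8.54, 8.76 and 8.71 in the 003 arrays, 9.70, 9.74 and 9.82 in the folate arrays and 9.81 and 9.80 in the 004 arrays. All 3 were below all 6 control arrays, and the difference was -1.11 ± 0.07 (SE; adjusted p = 1.4e-07). BNIP3, a mitophagy receptor, read 10.80, 10.65 and 10.76 with 003, 11.85, 11.71 and 11.85 with folate alone and 11.84 and 11.71 with 004. It was also below all 6 control arrays, with a difference of -1.05 ± 0.07 (SE; adjusted p = 2.7e-07), and another probe set read -0.83. P4HA1, a collagen prolyl hydroxylase (-1.03), and KDM3A, a histone demethylase (-1.02), were likewise lower. Glucose transport and most of glycolysis were not called: SLC2A1 differed by -0.03, LDHA by -0.28, PGK1 by -0.48 and VEGFA, which is also in the amino acid list, by -0.16. The no-folate extract lay at -0.84 for BNIP3 and -0.76 for ALDOC against the same pool.

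Lipid synthesis genes were lower in part. Of 18 cholesterol synthesis and uptake genes, 7 were lower and 0 higher (median -0.17): INSIG1, which retains the sterol sensor in the endoplasmic reticulum (-1.09), STARD4, a sterol carrier (-1.01), and the synthesis enzymes SC5D (-0.99) and MSMO1 (-0.69) had the largest differences. Of 13 fatty acid synthesis genes, 4 were lower and 0 higher: ACSL4, which activates arachidonate (-0.99), SCD, the stearoyl-CoA desaturase (-0.84), ELOVL6, a fatty acid elongase (-0.79), and ME1, malic enzyme (-0.71). FASN differed by 0.20 and SREBF1 by 0.06. Against the no-folate extract SCD was higher with 003, by 0.54 (adjusted p = 8.0e-04), and INSIG1 differed by 0.15 (adjusted p = 0.339). The letters TCACNCCAC, written here for a sterol response element, were searched in the same windows on both strands. They were in 0 of the 6 called cholesterol genes with a promoter. Over that list 1 of 17 promoters held them, that of SREBF2, beside 1.12% of all 11272.

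In the endoplasmic reticulum list 5 of 24 genes were lower and 0 higher, with a median of -0.34. They included the disulphide isomerases PDIA3 (-0.89) and PDIA4 (-0.72), SEL1L, an adaptor of misfolded protein disposal (-0.71), and the co-chaperone DNAJB9 (-0.68), while the chaperone HSPA5 differed by -0.43 and CALR by 0.00. With all its probe sets averaged, SEL1L differed by -0.16. None of 11 cytosolic heat shock genes was called (2 higher and 6 lower at an unadjusted p under 0.05).

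Of 10 metallothionein and zinc response genes, 3 were lower and 0 higher, with a median of -0.39. They were MT1F and MT2A, which encode small proteins that bind zinc and copper, and SLC30A1, a zinc exporter, while MT3 differed by 0.20. The MT2A promoter is shown because MT2A and SLC30A1 were the called members with a promoter in the table and both held the letters TGCACNC or TGCGCNC, written for a metal response element. Those letters were in 4 of 6 promoters of the list and in 37.7% of all, on either strand.
MT2A, chr16:56608334-56608633, plus strand: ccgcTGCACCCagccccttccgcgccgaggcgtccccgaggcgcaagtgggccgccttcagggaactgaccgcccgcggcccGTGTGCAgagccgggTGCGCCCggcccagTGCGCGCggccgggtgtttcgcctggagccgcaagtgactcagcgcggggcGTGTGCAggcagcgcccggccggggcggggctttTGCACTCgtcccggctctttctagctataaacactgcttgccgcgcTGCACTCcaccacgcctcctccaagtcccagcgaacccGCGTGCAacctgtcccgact
The window holds 8 matches. MT2A read 11.66, 11.62 and 11.49 in the 003 arrays, 12.11, 12.29 and 12.21 in the folate arrays and 12.17 and 12.13 in the 004 arrays, and the left-out array read 11.56. The 003 arrays were below the 5 controls, with a difference of -0.59 ± 0.07 (SE; adjusted p = 8.35e-06). The no-folate extract lay at 0.24 and the MORAb003 extract at -0.57 against the same pool. MT1F differed by -0.71, and the difference from the no-folate extract was -0.81 (adjusted p = 8.2e-05). Metallothionein genes are near-identical copies, so their probe sets may share signal.

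MAL, a raft protein of apical transport, read 11.98, 11.94 and 12.00 with 003, 12.67, 12.69 and 12.75 with folate alone and 12.76 and 12.70 with 004, with 12.23 in the left-out array. The difference was -0.74 ± 0.06 (SE; adjusted p = 6.4e-07). The no-folate extract lay at 0.09 and the MORAb003 extract at -0.94. MAL was the only called gene of 12 in its list, beside 5.99% of all genes tested that were lower, and CAV1 differed by -0.32.

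Cell cycle genes were called in the G2/M list. None of 36 G1/S and DNA replication genes was called, with 8 higher and 17 lower at an unadjusted p under 0.05 by limma and a median of -0.15. Of 38 G2/M and mitosis genes 6 were lower and 1 higher (median -0.30), the lower ones led by ASPM (-0.79), KIF23 (-0.78), KIF20A (-0.73) and the checkpoint gene MAD2L1 (-0.70). Other ASPM probe sets read 0.15 and 0.25. With all its probe sets averaged, KIF23 differed by -0.24. The higher one, UBE2S (0.61), a conjugating enzyme of the anaphase-promoting complex, was named after its value was seen. MKI67 differed by 0.24, AURKB by -0.02 and PLK1 by -0.02. In the no-folate extract KIF20A lay at -0.83 and KIF23 at -0.94 against the same pool.

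Of 20 p53 target genes 4 were lower and 0 higher: TP53INP1 (-1.08, with 0.00 in another probe set), cyclin G1 gene CCNG1 (-0.82), the death receptor FAS (-0.71) and TIGAR (-0.60). The classic target CDKN1A differed by 0.16, and the parent line SKOV3 is known to lack p53. FAS and CASP8 (-0.60) were the lower ones of 30 apoptosis regulators, and 0 were higher, which is near the share over all genes. For CASP8 other probe sets read 0.22 and -0.04.

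Respiratory chain genes of the nucleus were called on both sides, 3 higher and 3 lower of 50, beside 0.734% and 5.99% of all genes tested, so the lower count was near the share over all genes. ATP5F1D (0.81) and NDUFS7 (0.62) were among the higher genes, and NDUFA5 (-0.85) and SDHD (-0.72) among the lower. Of 7 mitochondrially encoded genes, ND6, a complex I subunit and the one coded on the light strand, was higher, by 0.72 ± 0.08 (SE; adjusted p = 7.8e-06). It read 11.15, 11.10 and 11.04 with 003, 10.46, 10.43 and 10.40 with folate alone and 10.47 and 10.18 with 004. The 003 arrays were above every other array of the series for ND6, whereas ND2 differed by -0.35 and COX1 by -0.18. None of 48 ribosomal protein genes was called, with a median of 0.09 (16 higher and 2 lower at an unadjusted p under 0.05).

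Adhesion genes of epithelial and mesenchymal type were both among the lower genes. Of 27 epithelial junction, keratin and mucin genes, 4 were lower, namely DSG2 (-0.90), PKP2 (-0.86, with 0.24 in another probe set), CDH1, E-cadherin (-0.64), and CTNNB1, beta-catenin (-0.61). With all probe sets of a gene averaged, CDH1 differed by only -0.24 and CTNNB1 by -0.28, whereas DSG2 differed by -0.98. MUC1 (0.60) was higher, and the keratin genes KRT8, KRT18 and KRT19 differed by -0.08 to 0.05. Of 28 mesenchymal and matrix genes, 5 were lower and 0 higher, led by COL4A1 (-0.88), MMP1 (-0.81), ITGAV (-0.74) and LAMB1 (-0.63). For LAMB1 the 003 and control arrays overlapped. MMP1 had a mean of 5.35 with 003, 6.08 with folate alone and 6.26 with 004, all under the cutoff for testing. It was tested only because the no-folate (6.73) and MORAb003 (6.75) extracts reached that cutoff. VIM differed by -0.46 and FN1 by -0.12.

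Small numbers were called in the remaining lists. LAMP2 (-0.90) and CTSC (-0.70) were the 2 lower ones of 28 lysosomal genes, and MAP1LC3B (-0.64) and NBR1 (-0.63) those of 29 autophagy genes, with 0 higher in either list, which is near the 5.99% of all genes tested that were lower. ME1 was the 1 called gene of 23 NRF2 targets, also near that share, and HMOX1 differed by 0.02. In the interferon list of 26 genes, ISG15 (0.65) was higher and IFIT1 (-0.76) lower. None of 14 genes of the insulin-like growth factor axis was called, beside 0.734% higher and 5.99% lower of all genes tested. At an unadjusted p under 0.05 by limma, 4 of them were higher and 3 lower.

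**Figure D4:**
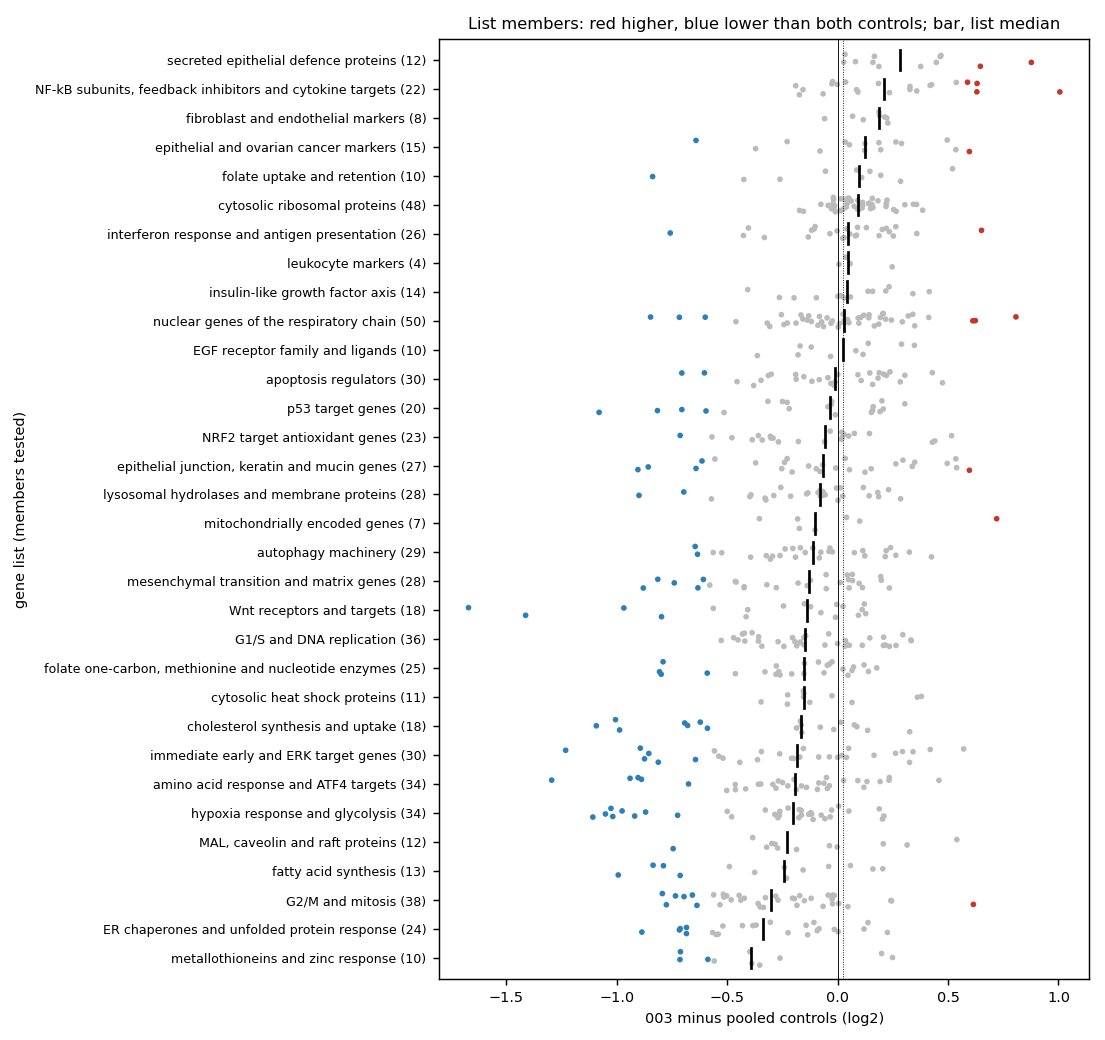
Difference from the pooled controls (log2, horizontal axis) for every tested member of 32 gene lists, with the number tested in brackets. Red and blue points are members higher or lower than both controls, black bars are list medians, and the dotted line is the median of all genes (0.03).

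The arrays of the 2 extracts that are no controls show which differences were also found against those extracts. Set directly against the no-folate extract, 536 genes were higher with 003 (3.78% of those tested) and 794 lower (5.6%) at an adjusted p under 0.05, and against MORAb003 the numbers were 5339 (37.7%) and 4543 (32.1%). All these contrasts use the same 3 arrays of 003, so the counts of members that follow are descriptions. Of the 104 higher members 21 were also higher than the no-folate extract and 98 higher than MORAb003. Of the 849 lower members 151 were also lower than the no-folate extract and 841 lower than MORAb003. Altogether 20 higher and 148 lower genes stood apart from all 4 other extracts in 1 direction, a rule added after the values were seen.

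**Figure D5:**
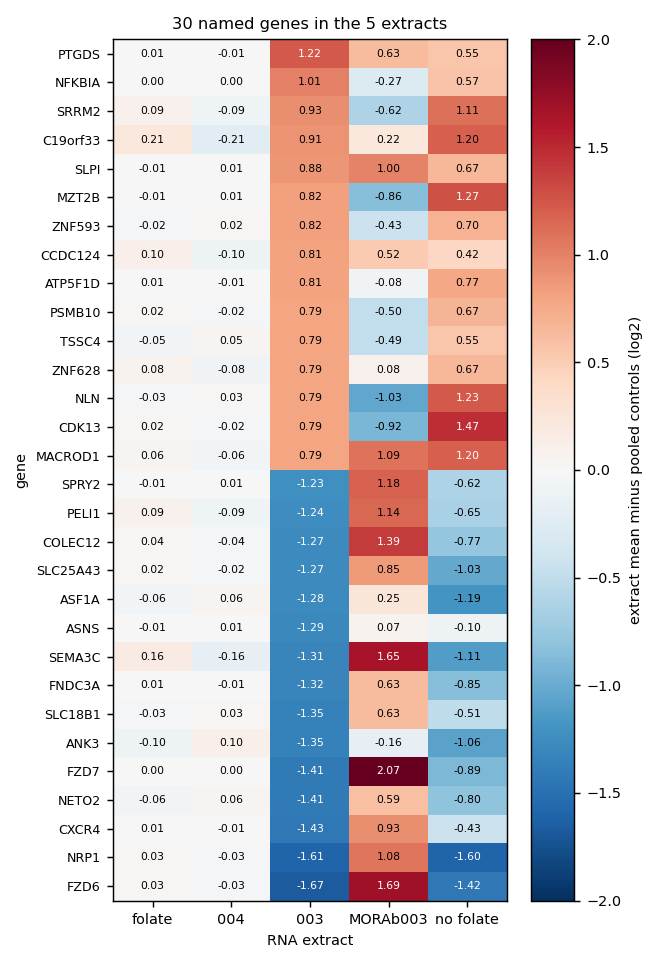
Mean of each RNA extract minus the pooled controls (log2, colour and printed value) for the 15 genes with the largest positive and the 15 with the largest negative difference in the 003 extract. In the no-folate extract FZD6 is at -1.42 and ASNS at -0.10, and in the MORAb003 extract FZD7 is at 2.07.

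The 20 higher ones included ND6, PTGDS, TNFAIP3, NFKBIA, MAP3K14, CCDC124 and UBE2S. PDLIM2, which directs a nuclear NF-kB subunit to degradation (0.70 against the pool and 0.46 against the no-folate extract), and DOHH, the hydroxylase that completes hypusine in the translation factor eIF5A (0.62 and 0.44), were also among them and were named after their values were seen. PTGDS was above the no-folate extract by 0.67 (adjusted p = 2.3e-04) and above MORAb003 by 0.59 (adjusted p = 1.4e-05). MAP3K14 was above them by 0.47 (adjusted p = 5.4e-04) and 0.19 (adjusted p = 0.0158).

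The 148 lower ones were led by ASNS, CXCR4, TP53INP1, DDIT4, SLC18B1, CTH and DUSP6 among the genes described above. FLG, which encodes filaggrin of the cornified epithelium (-1.12 against the pool and -1.06 against the no-folate extract), and IRF8, an interferon regulatory transcription factor (-1.01 and -0.89), were named after their values were seen. By list, all 5 called genes of the amino acid list and 5 of the 6 of the ERK list stood apart from all other extracts. So did 3 of the 4 called NF-kB genes, 3 of the 8 of the hypoxia list, 3 of the 5 mesenchymal and matrix genes and 1 of the 4 Wnt genes, FZD7. None of the 7 called cholesterol genes, the 6 lower G2/M genes or the 4 one-carbon genes did. Of the mesenchymal genes that did, MMP1 reached the cutoff for testing only through the no-folate and MORAb003 extracts. Its difference from those extracts is in part set by that cutoff. These counts moved with single arrays: leaving out 1 array at a time gave 12 to 25 higher genes and 68 to 335 lower ones, with 68 without 003 replicate 2, 77 without no-folate replicate 3, 91 without 003 replicate 1 and 335 without 003 replicate 3. With replicate 1 of 004 included, 1 higher and 5 lower genes were counted.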

How the data were processed

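Messenger RNA was measured on Affymetrix U133 Plus 2.0 arrays from Trizol RNA labelled as biotinylated cRNA, per the labels. The authors deposited log2 values for each probe set, from 4.00 to 15.5, and these were used as they stand. How the authors summarised and normalized them is not given in the sources used here, and depth does not apply to arrays, whose number limits the precision.

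Of 54675 probe sets, 62 controls were left out and 41091 carried 1 gene symbol, 1801 several and 11721 none. Symbols were updated through the RefSeq gene table (41037 matched). Each of 19775 genes was taken at its brightest probe set, and 14170 were tested, those with at least 1 extract mean at or above the median of all probe sets. In limma 3.58.1 (R 4.3.3), 5 group means were fitted to 14 arrays with 9 residual degrees of freedom; 004 replicate 1 was left out, as its correlation with its own extract was at most 0.95 and its 90th percentile 9.04, against 9.73 and 9.74 for the others.

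Named were FOLR1, the 15 genes of largest difference each way, up to 4 called members per list and uncalled examples. The members and the 32 lists were chosen with earlier results of these data known. In the limma test on simulated data of 14170 genes, the rule recovered 93 of the 100 genes raised or lowered 1.8-fold. At 3-fold it recovered 100 of the 100, with 0 false calls. The simulated arrays held only the error between aliquots of an extract, with no difference between cultures or RNA states. The 0 false calls therefore say nothing of such differences among the members. Arrays with the same replicate number did not deviate together throughout (26 pairs, correlations -0.41 to 0.52, median -0.02, 7 over 0.1). The 003 arrays did so in part, at 0.08, 0.32 and 0.52 with no-folate arrays and 0.195 and 0.202 with 004 arrays. With folate arrays the values were -0.05, 0.28 and -0.25, and with MORAb003 arrays -0.02, -0.15 and -0.17. Replicate 3 was also the second array date. The main fit used no pairing.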

Additional observations from a re-analysis of the deposited data

How the results depend on the processing

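Among 30 alternatives with a test, 94 of the 95 named genes called kept their direction and 66 kept an adjusted p under 0.05 against the pool. CDK13 reversed to -0.00603 when all its probe sets were averaged. Counts are given as higher and lower genes. For both controls they were 82 and 66 with all 15 arrays (250 and 177 against the pool), 218 and 647 after quantile normalization (218 against the pool) and 65 and 1006 with arrays shifted to a common median (65 against the pool), which moved the median of all genes from 0.03 to -0.02. They were 47 and 425 with the mean of all probe sets (47 and 426 against the pool), 1299 and 2401 without a fold minimum (2404 and 3374 against the pool), 2 and 74 at 2-fold (2 and 74 against the pool), and 2294 and 3427 with extract means as units and no fold minimum (the same against the pool). Leaving out 1 array gave 85 to 136 and 597 to 1173, and 85 to 136 and 614 to 1186 against the pool. Genes apart from all 4 other extracts numbered 1 and 5 with all 15 arrays, 184 and 472 with extract means, 40 higher after quantile normalization, 9 higher with a common median, 12 and 87 with probe sets averaged, 156 and 287 without a fold minimum, 2 and 25 at 2-fold and 12 higher on the first array date, and 12 to 25 and 68 to 335 when 1 array was left out. The FOLR1 difference, 0.20 in the report, missed the threshold with all 15 arrays (0.28, adjusted p = 0.143), with the 8 arrays compared (0.20, 0.055), with extract means (0.20, 0.0762), with a common median (0.15, 0.109) and on the first date (0.22, 0.0923), and ran from 0.15 to 0.24 when 1 array was left out. It also missed the threshold without folate replicate 1 or 3, any 003 replicate or 004 replicate 2 (adjusted p = 0.051 to 0.148), and it was 0.30 with all probe sets averaged (adjusted p = 0.0317). The replicate block gave 112 and 857 genes. With extract means as units each extract was 1 value with no replicate culture, so the difference from each control was not tested on its own. The match of those counts with the counts against the pool is therefore no further evidence for either control. The second date alone has 1 array per extract and gave no test. Apart from the sizes set by fewer arrays or another fold minimum, the cause of these changes was not tested. With 1 culture per condition, treatment, culture and the RNA state of the extract cannot be told apart.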
